A study of Mus musculus with 21 samples.

Results

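The cytosolic ribosomal protein genes encode the proteins of the 40S and 60S subunits of the ribosome. They were taken as the rows whose symbol is Rpl or Rps followed by a number, with at most 1 letter and further digits after it, plus Rplp0, Rplp1, Rplp2 and Rpsa, and rows named as pseudogenes (-ps) were left out. This gave 84 of the 22899 genes of the coculture table (19321 had values) and 88 of the 27968 genes of the sorted-cell table, with 83 in both and 89 in either. Rpl32l was in the coculture table alone, and Rpl6l, Rps12l1, Rps3a2, Rps3a3 and Rps4l were in the sorted-cell table alone. By symbol, the sorted-cell set held 36 genes of the small subunit (Rps) and 52 of the large subunit (Rpl), and the coculture set held 32 and 52. Kept by their symbols were Rpl6l, Rps12l1, Rps3a2 and Rps3a3, processed pseudogenes in the GENCODE M21 annotation, and Rps4l, a transcribed processed pseudogene there.

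Each ribosome carries 1 copy of nearly every one of these proteins, so cells make them in step, and their mRNAs are among the most abundant of a growing cell. Their transcripts usually open with a short run of pyrimidines, the 5' terminal oligopyrimidine tract, through which mTOR and the RNA-binding protein LARP1 adjust their translation. A few members have a paralog that is read in certain tissues or stages, and the family has left many processed pseudogenes in the mouse genome. In blood formation these genes are known from Diamond-Blackfan anemia, a failure of red cell production in which one copy of a ribosomal protein gene is lost.

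RNA-seq was performed on 21 libraries in 7 groups of 3 replicates. The groups named 3D+0.1% gelatin and 3D+OP9 were total cells of a 129/ola background on day 5, after colonies from a three-dimensional peptide culture of mouse pluripotent stem cells had been reseeded on gelatin without stroma or on mitomycin-treated OP9 stromal cells. D5-LSKCD201+ and D5-LSKCD201- cells (lineage-negative, Sca-1+, c-kit+ and sorted on CD201) came from the 3D+OP9 culture on the same day and background, and the mESC group, also 129/ola, was mouse embryonic stem cells sorted on SSEA-1. FL-LSKCD201+ and BM-LSKCD201+ cells had the same gate but came from C57BL/6 mice, from midgestation fetal liver and from bone marrow at 6 to 8 weeks of age. Strain, culture and tissue of origin therefore changed together between the in vitro and the FL or BM groups and cannot be told apart. The study calls the sorted replicates biological and speaks of independent experiments, but no label ties a library to a culture or animal, and the p-values cover the spread between these libraries. In these bulk samples, fewer cells of a type and less RNA per cell cannot be told apart.

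The labels were checked against marker genes. Procr, which encodes CD201, was at 57.9 to 61.9 FPKM in D5-LSKCD201+ and at 3.02 to 3.82 in D5-LSKCD201-. Ptprc, the pan-leukocyte antigen CD45, was at 0.305 to 0.602 FPKM in D5-LSKCD201+ and at 38.4 to 52.1 in FL-LSKCD201+, so this marker was nearly absent from the CD201+ cells made in vitro. The list of 7 hematopoietic markers that holds it, along with the gate genes Procr, Kit and Ly6a, summed to 402 to 406 FPKM in these cells, 93.6 to 98.9 in D5-LSKCD201-, 12.9 to 14.8 in mESC, 573 to 656 in FL and 1230 to 1300 in BM. The 4 endothelial markers summed to 539 to 563 FPKM in D5-LSKCD201+ and to between 15.5 and 40.8 in the other sorted libraries, and the 8 stromal markers to 82.9 to 86.9 in D5-LSKCD201+, 34.2 to 68.1 in D5-LSKCD201- and at most 9.18 in the rest. The 6 markers of pluripotent cells summed to 5700 to 6220 FPKM in mESC, 3200 to 3660 in D5-LSKCD201- and 20.7 to 28.1 in D5-LSKCD201+. The FL libraries also held erythroid (327 to 385), hepatocyte (338 to 513) and mature myeloid (1610 to 1740) marker RNA. In the same order these lists summed to 4.43 to 13.1, 6.07 to 9.78 and 416 to 438 FPKM in BM. In D5-LSKCD201+ they summed to 30.5 to 50.1, 0.668 to 0.918 and 6.56 to 7.11 FPKM. The part of these markers in the comparisons with FL was not tested.

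Values are FPKM, reads scaled by transcript length and library size, so each is a level relative to the rest of its library. As a share of all FPKM, the members took 8.61, 8.65 and 8.13% in mESC. In D5-LSKCD201- it was 8.65, 9.26 and 9.26%, and the D5-LSKCD201+ libraries had 7.44, 6.81 and 7.23%. The share in D5-LSKCD201+ (7.16% ± 0.321, SD, n = 3) lay below every library of D5-LSKCD201- (9.06% ± 0.353) and of mESC (8.46% ± 0.291). It was 6.43, 10.1 and 9.86% in FL-LSKCD201+ and 11.2, 13.1 and 13.3% in BM-LSKCD201+ (12.5% ± 1.16), the highest of the sorted groups and without overlap with any of them. The share was 20.2, 20.5 and 21% in 3D+OP9 and 22.1, 19.7 and 19.4% in 3D+0.1% gelatin, where the groups overlapped. The coculture and sorted-cell tables were normalized separately and listed different genes, so their shares are not compared.

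**Figure D1:**
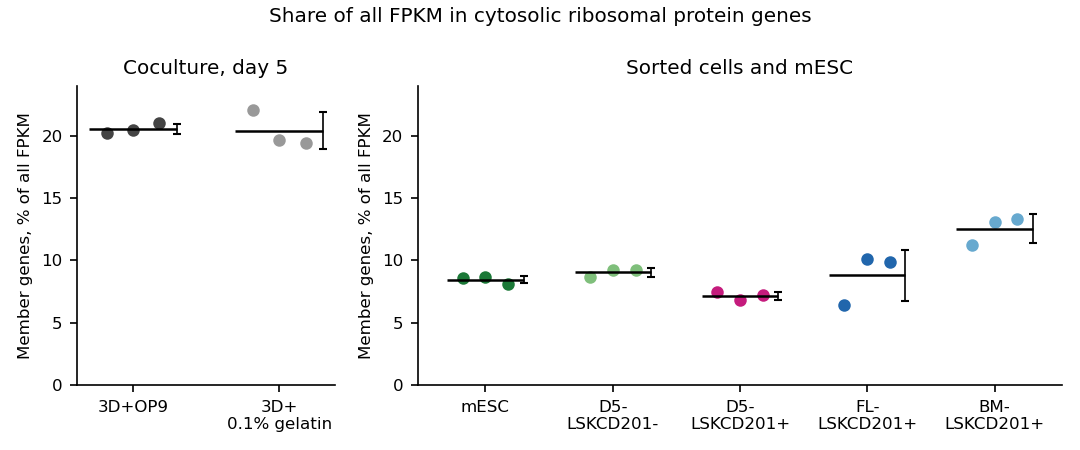
Summed FPKM of the cytosolic ribosomal protein genes as a percent of all FPKM of a library (y axis), by group (x axis), with the coculture table on the left and the sorted-cell table on the right. Points are libraries, lines are group means and bars are 1 SD (n = 3). The D5-LSKCD201+ libraries sit between 6.81 and 7.44%, and FL replicate 1, at 6.43%, stands apart from the other FL libraries at 10.1 and 9.86%.

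The order of single members was steady within groups. Among the members with the highest mean levels in the sorted-cell table were Rpl13 (2890 FPKM) and Rps6 (1630), and the highest in the coculture table were Rps2 (4010), Rpl19 (2960) and Rps26 (2790). The median level of the members was 417 FPKM in mESC, 473 in D5-LSKCD201-, 321 in D5-LSKCD201+, 435 in FL-LSKCD201+ and 516 in BM-LSKCD201+. The FL value leans on replicate 1. In single libraries the median was 245, 574 and 546 FPKM in FL-LSKCD201+ and 453, 565 and 600 in BM-LSKCD201+. Across members, log2 levels of replicates of a group had a Pearson correlation of 0.995 or more in all groups except FL-LSKCD201+, where replicate 1 reached 0.973 and 0.975 with the others. This correlation is across genes, which are not independent replicates.

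FL replicate 1 stood apart in a way that followed length. Of the 83 members with a coding sequence in the GENCODE M21 annotation of GRCm38, 81 were lower in it than in the mean of FL replicates 2 and 3, with a median difference of -1.15 on the log2 scale. The 28 members with the shortest coding sequences (up to 404 bases) had a median difference of -1.59, and the 28 longest (over 583 bases) had one of -0.58. Rpl38, a short member of the large subunit, was at 40.2 FPKM against 206 and 195, and Rps29 was at 80.2 against 369 and 347. Rpl5, a long member, was at 432 against 468 and 471, and Rpl7l1 was at 116 against 108 and 107. BM replicate 1 had the same sign with a smaller size, a median difference of -0.39 with 82 of 83 members lower. It also followed length, with -0.55 for the 28 shortest and -0.27 for the 28 longest members. The part that RNA quality or library preparation has in this difference was not tested, and results that rest on FL replicate 1 are given with and without it.

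**Figure D2:**
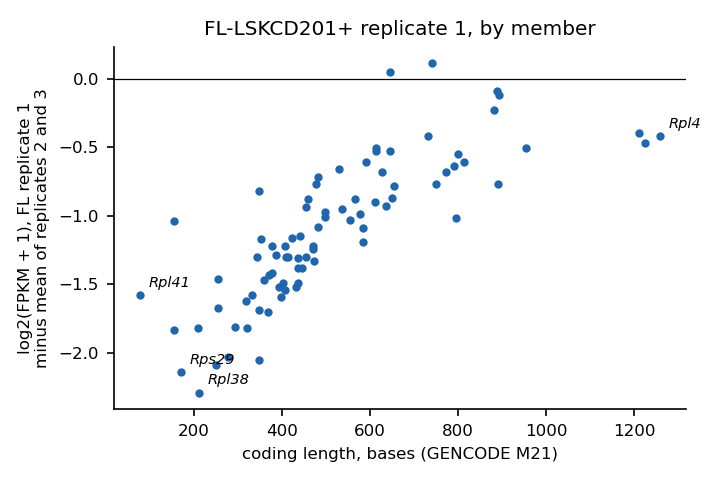
Difference of log2(FPKM + 1) between FL-LSKCD201+ replicate 1 and the mean of replicates 2 and 3 (y axis) against coding length in bases (x axis). Each point is 1 of the 83 members with a coding sequence. The shortest members fall to -2.29 (Rpl38), while Rpl7l1, with a difference of 0.11, lies above 0.

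Differences between groups were tested on log2(FPKM + 1) with limma over all genes whose mean reached 0.5 FPKM, with Benjamini-Hochberg adjustment over all of them. A gene was called when its adjusted p was below 0.05 and it differed by 1 or more on the log2 scale, the thresholds of the study's own test. Since members move by little, counts with the adjusted p alone are also given, by direction.

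The first comparison asked whether stromal coculture changed these genes. In day 5 total cells it hardly did at the level of the family. Of 83 members tested, 1 was called, 1.2% against 2.62% of all genes tested, and the median log2 difference of the members (3D+OP9 minus gelatin) was 0.00, with quartiles of -0.07 and 0.05, beside 0.01 over all genes. At an unadjusted p under 0.05 limma gave 3 members. Small and large subunit genes had medians of 0.01 and -0.01.

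The called member was Rpl10l, a paralog of Rpl10 known from the testis, where it stands in for the X-linked gene. It was at 3.2, 3.4 and 6.17 FPKM in 3D+OP9 and at 0.68, 1.49 and 0.41 in 3D+0.1% gelatin. The groups did not overlap, and the difference was 1.5 on the log2(FPKM + 1) scale (SE 0.27, adjusted p = 0.02, limma). The call was lost without 3D+OP9 replicate 2, without 3D+0.1% gelatin replicate 1 and without 3D+0.1% gelatin replicate 3. Rpl39l, another paralog at low level, was at 1.01, 1.84 and 8.37 FPKM against 0, 1.02 and 1.59, groups that overlapped (adjusted p = 0.31). The abundant members were alike, as Rps2 shows with 4050, 3939 and 3959 FPKM against 4479, 3850 and 3771. The 6 erythroid markers summed to 187 to 695 FPKM in 3D+OP9 and to 3.99 to 18.5 in 3D+0.1% gelatin, and the 8 stromal markers to 56.4 to 64.0 and 29.1 to 40.4. The 6 pluripotent markers summed to 614 to 1110 FPKM and 910 to 981, ranges that overlap. The part of these markers in the Rpl10l difference was not tested.

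Within the coculture, the next comparison set D5-LSKCD201+ against D5-LSKCD201- cells of the same gate. Nearly the whole family was lower in the CD201+ cells, by a modest amount. With the adjusted p alone, 72 of 87 members tested (82.8%) were lower and 0 higher, against 39.6% lower and 28.7% higher of all genes tested. The median log2 difference was -0.48, with quartiles of -0.56 and -0.32, beside -0.12 over all genes, and 86 of 87 members had a negative sign. Past both thresholds, 3 members were called (3.45%, against 24.7% of all genes tested). The count at the adjusted p alone fell to 30 when 1 fit over all 5 sorted groups set the spread. The share of all genes lower in that fit is not given here, so whether the members still exceed it is not known. Both subunits took part, with 33 of 36 small and 39 of 51 large subunit genes lower and medians of -0.46 and -0.48. The summed pluripotent, hematopoietic, endothelial and stromal markers differed between these groups without overlap, with the values given above, and their part in the family's difference was not tested.

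Members with a special role were for the most part lower too. Rpl5, Rpl11 and Rpl23, which with 5S rRNA or alone can bind MDM2, were all lower, with differences of -0.45, -0.38 and -0.56. Rpl5 was at 355, 348 and 363 FPKM in D5-LSKCD201+ and at 489, 489 and 481 in D5-LSKCD201-, without overlap. Of 12 genes mutated in Diamond-Blackfan anemia, 11 were lower, beside 82.8% of all members and 39.6% of all genes tested, led by Rps26 with -0.83 (SE 0.12, adjusted p = 0.00054, limma) and Rpl26 with -0.59, and Rps19, the gene most often mutated in that disease, had a difference of -0.15 (SE 0.08, adjusted p = 0.12, limma). In the P stalk, which recruits elongation factors, Rplp2 was lower by a difference of -0.75, while Rplp0 (-0.10, adjusted p = 0.19, limma) and Rplp1 (-0.27, adjusted p = 0.07, limma) did not pass.

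**Figure D3:**
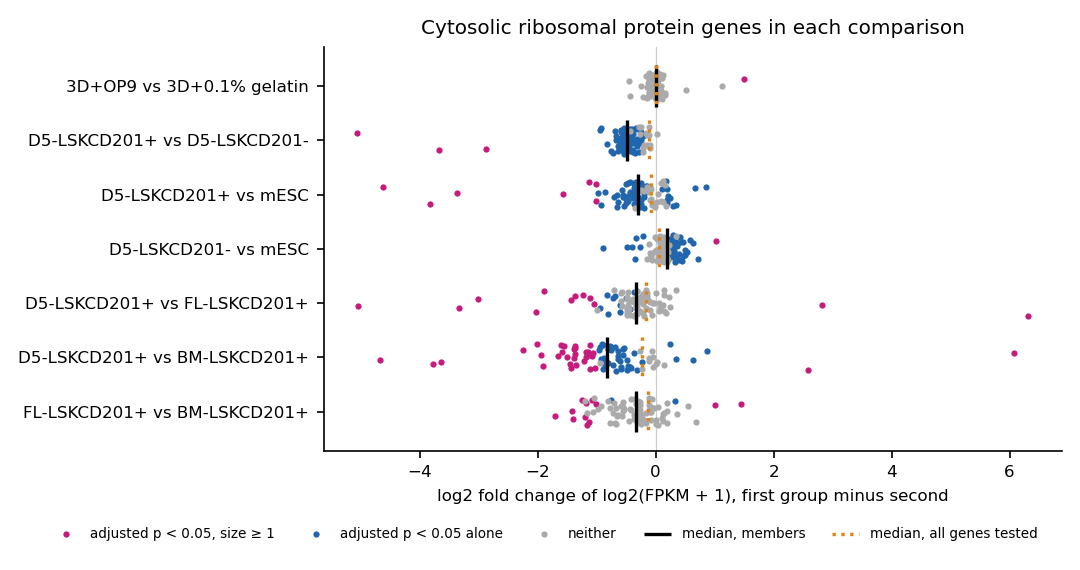
Log2 fold change of each cytosolic ribosomal protein gene on the log2(FPKM + 1) scale (x axis, first group minus second) in the 7 comparisons (y axis). Each point is a member, with its colour giving the thresholds passed, the black line is the members' median and the dotted line the median of all genes tested. Members cluster at -0.48 in D5-LSKCD201+ against D5-LSKCD201- and at 0.00 in 3D+OP9 against 3D+0.1% gelatin, and single rows lie far from the rest in the comparisons with FL and BM.

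Against mESC, the members' medians in the CD201+ and CD201- cells lay on opposite sides. In D5-LSKCD201+, 57 of 88 members were lower (64.8%) and 11 higher with the adjusted p alone, against 45.2% and 40.3% of all genes tested, and the median difference was -0.30 beside -0.07 over all genes. Past both thresholds 7 members were called, all lower (7.95%, against 37.6% of all genes tested). In D5-LSKCD201-, 38 of 88 members were higher (43.2%) and 7 lower (7.95%), against 32.2% and 22.4% of all genes tested, with a median of 0.19 beside 0.05 over all genes. Past both thresholds 1 was called there (1.14%, against 14.3%), Rpl29, at 15.8, 18.2 and 19.1 FPKM against 8.40, 8.96 and 7.35 in mESC, a difference of 1.02 that was 0.16 once the near-identical copies described further on were summed with it. The call was lost by quantile normalization, without D5-LSKCD201- replicate 2, without D5-LSKCD201- replicate 3 and without mESC replicate 3. The comparisons share the mESC libraries. In 14 members the CD201+ cells were lower and the CD201- cells higher than mESC, each past the adjusted p. The share of all genes that did so is not given here, so this count is not set against a background. One fit over all 5 groups left 20 members lower in D5-LSKCD201+ and 5 higher in D5-LSKCD201-. The shares of all genes above belong to the separate fits and are not the background of these 2 counts.

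Paralogs aside, Rpl21 was among the members that differed most from mESC in D5-LSKCD201+. Rpl21, of the large subunit, was at 248, 219.5 and 241 FPKM in D5-LSKCD201+, at 434, 459 and 446 in D5-LSKCD201- and at 558, 534 and 470 in mESC. The D5-LSKCD201+ libraries lay below those of both other groups, with a difference from mESC of -1.13 (SE 0.07, adjusted p = 3.2e-07, limma). Rpl23 (-0.92) and Rpl7l1 (-0.98) were lower by nearly as much. In the other direction, Rps19 (0.30) and Rps27 (0.34) were higher in D5-LSKCD201+ than in mESC past the adjusted p, and so was the row of Rplp0 (0.10), but not its sum with near-identical copies (0.05, adjusted p = 0.34, limma). With one fit over all 5 groups, 1 of the 11 members higher than mESC was left, Rpl29, whose difference of 0.86 for the row was -0.10 with near-identical copies summed (adjusted p = 0.23, limma).

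In the comparisons of D5-LSKCD201+ with mESC and D5-LSKCD201-, paralogs gave the largest differences. Rpl10l and Rpl39l encode near relatives of Rpl10 and Rpl39, both X-linked, and Rps4l resembles the X-linked Rps4x. The coding sequences of Rpl39 and Rpl39l are shown because they differ at enough places for reads to tell them apart. They are from the GENCODE M21 transcripts, bases 1 to 156, and capitals mark the bases of Rpl39l that differ from Rpl39, 23 of 156 (85.3% identity). Rpl39 lies at chrX:37082520-37085402 (- strand) and Rpl39l at chr16:10170226-10174911 (+ strand) of GRCm38.
Rpl39: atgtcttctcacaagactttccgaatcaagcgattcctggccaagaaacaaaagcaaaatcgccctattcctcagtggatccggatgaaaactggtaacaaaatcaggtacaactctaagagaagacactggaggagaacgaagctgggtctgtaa
Rpl39l: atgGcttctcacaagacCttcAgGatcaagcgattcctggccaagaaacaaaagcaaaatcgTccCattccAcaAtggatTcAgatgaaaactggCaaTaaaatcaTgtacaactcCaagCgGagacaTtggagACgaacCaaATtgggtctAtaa

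Rpl39l was at 15.4, 15.98 and 13.8 FPKM in mESC and at 14.4, 12.8 and 13.6 in D5-LSKCD201-. It was at 0, 0.103 and 0.334 FPKM in D5-LSKCD201+, 0.806, 2.75 and 2.65 in FL-LSKCD201+ and 0.485, 0.607 and 0.265 in BM-LSKCD201+. Its level was thus high in the 2 groups with pluripotent markers and low in the 3 others, and the difference of D5-LSKCD201+ from D5-LSKCD201- was -3.68 (SE 0.13, adjusted p = 5.8e-07, limma). Rpl39 itself was at 137, 126 and 128 FPKM in D5-LSKCD201+ and at 184, 179 and 210 in D5-LSKCD201-.

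Rpl10l (chr12:66283379-66284401, - strand, 1 exon, against 6 in Rpl10) was also high in these 2 groups and low in the others. It was at 28.1, 30.5 and 28.8 FPKM in mESC, at 38.2, 41.2 and 39.4 in the CD201- cells and at 0.219, 0.385 and 0.0587 in the CD201+ cells of day 5. FL-LSKCD201+ (0.0654, 0 and 0.0538) and BM-LSKCD201+ (0, 0 and 0.0523) had almost none, so that Rpl10l fell below the filter in the comparisons among these 3 groups. The difference between D5-LSKCD201+ and D5-LSKCD201- was -5.06 (SE 0.12, adjusted p = 1.2e-07, limma), and D5-LSKCD201- was higher than mESC by 0.43 (adjusted p = 0.00098, limma). Rpl10 was at 1390, 1275 and 1349 FPKM in D5-LSKCD201+ and at 1323, 1566 and 1448 in D5-LSKCD201-, overlapping ranges (-0.11, adjusted p = 0.24, limma).

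Rps4l lies at chr6:148354656-148355598 (+ strand) and is a transcribed processed pseudogene in GENCODE M21. It was at 747, 704 and 701 FPKM in mESC, at 484, 506 and 539.6 in the CD201- cells and at 72.2, 67.1 and 66.1 in the CD201+ cells of day 5. It was at 94.6, 136 and 139 FPKM in FL-LSKCD201+ and at 32.9, 50.01 and 50.8 in BM-LSKCD201+. In mESC its level was close to that of Rps4x (779, 759 and 734 FPKM), and in D5-LSKCD201+, where Rps4x was at 555, 539 and 549, it was far below. The difference between the D5 groups was -2.88 (SE 0.06, adjusted p = 8.3e-08, limma).

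The other paralogs were less uniform. Rpl3l, a muscle paralog of Rpl3, was at 2.73, 2.33 and 2.09 FPKM in mESC and at 0.138, 0.164 and 0.0989 in D5-LSKCD201+, a difference of -1.57. Rps27l was at 597, 608 and 514 FPKM in mESC and at 306, 261 and 286 in D5-LSKCD201+ (-1.01), a call that slipped under the fold threshold in 6 of 15 other settings. Rpl22l1, a paralog of Rpl22 known from blood development, went the other way. It was at 150.2, 162 and 136 FPKM in mESC, at 223, 224 and 252 in the CD201- cells and at 244, 226 and 244 in the CD201+ cells, higher than mESC in both (0.64 and 0.67), and was the 1 member of 87 with a positive difference between D5-LSKCD201+ and D5-LSKCD201- (0.03, adjusted p = 0.68, limma). Rpl22 was at 88.2, 72.3 and 81.2 FPKM in D5-LSKCD201+ and at 118, 113 and 112 in mESC. The 6 pluripotent markers, like Rpl10l, Rpl39l and Rps4l, were high in mESC and D5-LSKCD201- and low in the 3 other groups, but from mESC to D5-LSKCD201- the marker sum and Rps4l were lower while Rpl10l was higher and Rpl39l did not pass the test. The part of the cells that carry these markers was not tested.

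**Figure D4:**
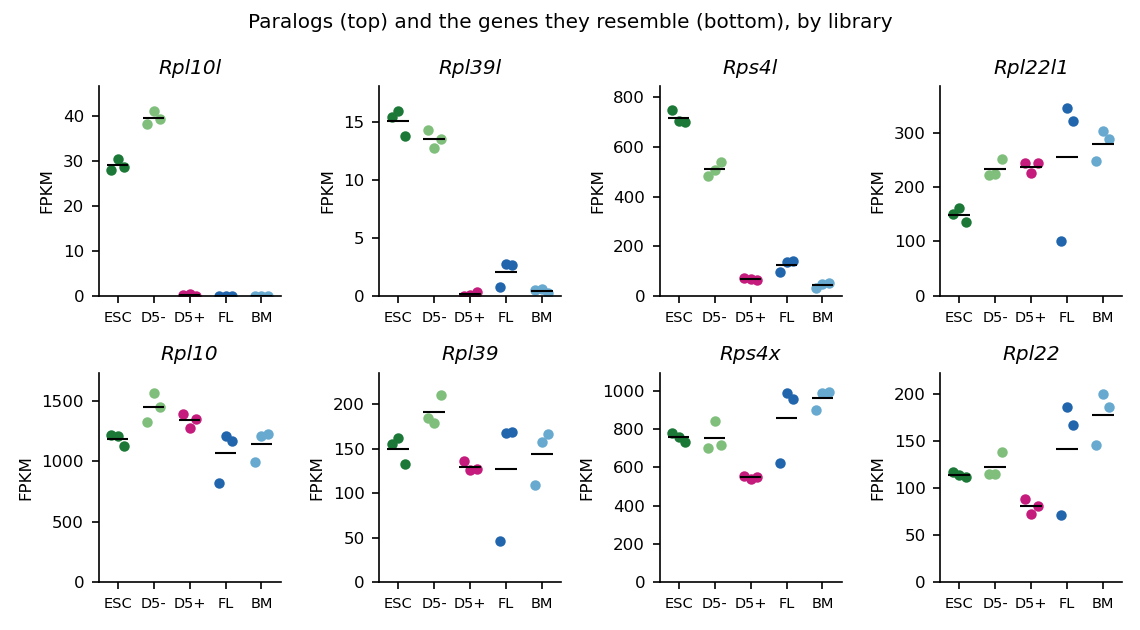
FPKM (y axes, linear, each from 0) of 4 paralogs (top row) and of the genes they resemble (bottom row) in the sorted-cell libraries. Points are libraries and lines are means of 3, with ESC for mESC, D5- and D5+ for D5-LSKCD201- and D5-LSKCD201+, and FL and BM for the cells from fetal liver and bone marrow. Rpl10l is at 28.1 FPKM or more in mESC and D5-LSKCD201- and at 0.385 or less elsewhere.

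The comparison of D5-LSKCD201+ with FL-LSKCD201+ cells asked how near the in vitro cells come to their fetal counterparts. Here a few rows moved far, and the size of the family's difference depended on FL replicate 1. Of 86 members tested, 12 were called (14%, against 34.7% of all genes tested), 10 lower and 2 higher. With the adjusted p alone, 20 were lower (23.3%) and 2 higher, against 42.0% and 30.1% of all genes tested, and the median difference was -0.34 beside -0.16 over all genes. Without FL replicate 1, 18 members were called (20.9%, against 36.4% of all genes then tested), the 12 among them, 81 of 86 were lower with the adjusted p alone (94.2%, against 48.9%), and the median was -0.74. Scaling each library to the same FPKM sum moved the median of all genes to -0.02 and that of the members to -0.17.

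Rpl29, Rpl34 and Rps3a1 were lowest. Rpl29, a large subunit protein (chr9:106429454-106431568, + strand, 4 exons), was at 16.3, 13.7 and 17.2 FPKM in D5-LSKCD201+, at 395, 669 and 633 in FL-LSKCD201+ and at 351, 477 and 463 in BM-LSKCD201+. The difference from FL was -5.05 (SE 0.21, adjusted p = 1.4e-06, limma). Rpl34 was at 31.2, 26.9 and 29.8 FPKM in D5-LSKCD201+ and at 176, 402 and 396 in FL-LSKCD201+, a difference of -3.33. Rps3a1, of the small subunit, was at 159.8, 150.4 and 153 FPKM in D5-LSKCD201+, at 781, 1617 and 1546 in FL-LSKCD201+ and at 1883, 2278 and 2240 in BM-LSKCD201+, a difference from FL of -3.01. Rpl30 (-2.03) and Rplp0 (-1.90) followed. Without FL replicate 1 the 5 differences were -5.29, -3.72, -3.35, -2.30 and -2.07. All 6 FL and BM libraries were above all D5-LSKCD201+ libraries for each of these genes. They were also above all mESC libraries, which had 8.40, 8.96 and 7.35 FPKM of Rpl29. The rows of Rpl30 (-0.41) and Rps3a1 (-0.19) were lower in D5-LSKCD201+ than in mESC past the adjusted p.

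The members that were higher in D5-LSKCD201+ were Rps3a2 and Rps3a3. Rps3a2 was at 491, 423 and 447 FPKM in D5-LSKCD201+, at 3.02, 5.81 and 5.68 in FL-LSKCD201+ and at 3.04, 7.15 and 8.24 in BM-LSKCD201+, a difference from FL of 6.32 (SE 0.21, adjusted p = 4.7e-07, limma). Rps3a3 was at 192, 169 and 186 FPKM in D5-LSKCD201+ and at 17.4, 28.6 and 30.9 in FL-LSKCD201+, a difference of 2.82. Both are processed pseudogenes of Rps3a1 in GENCODE M21, each a single exon. The row of the parent was thus low where the rows of its copies were high.

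These copies are almost the same sequence as their parents. A stretch of each is shown to let the likeness be seen, with 2 of the 4 differences of Rps3a2, 2 of the 9 of Rps3a3 and 1 of the 2 of Rpl34-ps1. The stretches are coding bases 569 to 668 of Rps3a1 (chr3:86137940-86142702, - strand) and the matching bases of Rps3a2 (chr14:88123017-88123808, - strand, 99.5% identity and 4 differences in all) and Rps3a3 (chr13:108670603-108671397, + strand, 98.9% identity and 9 differences). The next pair are coding bases 33 to 132 of Rpl34 (chr3:130726831-130730398, - strand) and of Rpl34-ps1 (chr6:71124610-71124963, + strand, 99.4% identity and 2 differences). All are from GRCm38 as annotated in GENCODE M21, and capitals mark the bases that differ from the parent.
Rps3a1: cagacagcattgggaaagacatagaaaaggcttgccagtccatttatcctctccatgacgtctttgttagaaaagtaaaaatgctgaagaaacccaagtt
Rps3a2: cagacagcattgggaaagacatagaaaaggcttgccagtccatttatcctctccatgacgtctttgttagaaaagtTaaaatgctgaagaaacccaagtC
Rps3a3: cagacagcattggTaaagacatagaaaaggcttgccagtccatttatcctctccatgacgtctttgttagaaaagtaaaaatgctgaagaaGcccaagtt
Rpl34: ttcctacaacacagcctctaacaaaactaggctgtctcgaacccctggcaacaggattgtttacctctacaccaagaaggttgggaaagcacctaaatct
Rpl34-ps1: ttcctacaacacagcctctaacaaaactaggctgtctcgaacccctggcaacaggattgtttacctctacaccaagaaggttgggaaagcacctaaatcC

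Rpl34-ps1 was at 160 ± 23.0 FPKM in D5-LSKCD201+ and at 1.81 ± 1.11 in FL-LSKCD201+ (SD, n = 3), the reverse of Rpl34. To see how far this reaches, every row with at least 95% identity to a member over at least 80% of its coding sequence was found, a step added after the values had been seen. There were 371 such rows for 72 members, 359 of them of a pseudogene type. In 14 of the 72 families, the copies took a larger share of the summed FPKM of the family in all 9 mESC and D5 libraries than in all 6 FL and BM libraries, by more than 20 percentage points in 10 of them (Rpl15, Rpl29, Rpl3, Rpl30, Rpl34, Rplp0, Rps13, Rps2, Rps3a1 and Rps7), and in 1 family the order was reversed. The copies of Rpl29 took 94.2 to 97.5% of the family in vitro and 0.918 to 2.35% in FL and BM, those of Rpl34 84.0 to 88.2% and 0.252 to 1.19%, those of Rps3a1 79.1 to 81.8% and 4.02 to 4.51%, and those of Rplp0 58.5 to 63.0% and 0.246 to 0.686%.

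Of the 12 members called between D5-LSKCD201+ and FL-LSKCD201+, 8 are among these 10 parents and 2 are their copies. With each parent and its copies summed, 2 of 82 families were called, against 34.8% of all rows tested, Rpl39l (-1.36) and Rpsa (-1.05), and the call of the Rpsa row was lost under both rescalings of the libraries (-0.88 and -0.90). The difference of Rpl29 became -0.97 (SE 0.21, adjusted p = 0.0048, limma), that of Rpl34 -0.61 (SE 0.32, adjusted p = 0.13, limma) and that of Rps3a1 -0.68 (SE 0.28, adjusted p = 0.062, limma). The SD of the differences across families narrowed from 0.79 to 0.30. Without FL replicate 1, the sums gave 8 of 82 families called and 79 lower with the adjusted p alone, with a median of -0.72 and an SD of 0.28. The shares of all rows in that fit are not given here. In the fit of single rows without it, 36.4% of all genes were called and 48.9% were lower. The summed differences without it were -1.22 for Rpl29, -1.0 for Rpl34 and -1.02 for Rps3a1. Rpsa, also the laminin receptor, has no such shift and was at 272, 279 and 285 FPKM in D5-LSKCD201+ and at 553, 582 and 598 in FL-LSKCD201+. How reads that match several of these rows were shared out is not given in the sources used here. The share follows strain and culture together, and which of them it goes with cannot be told apart.

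**Figure D5:**
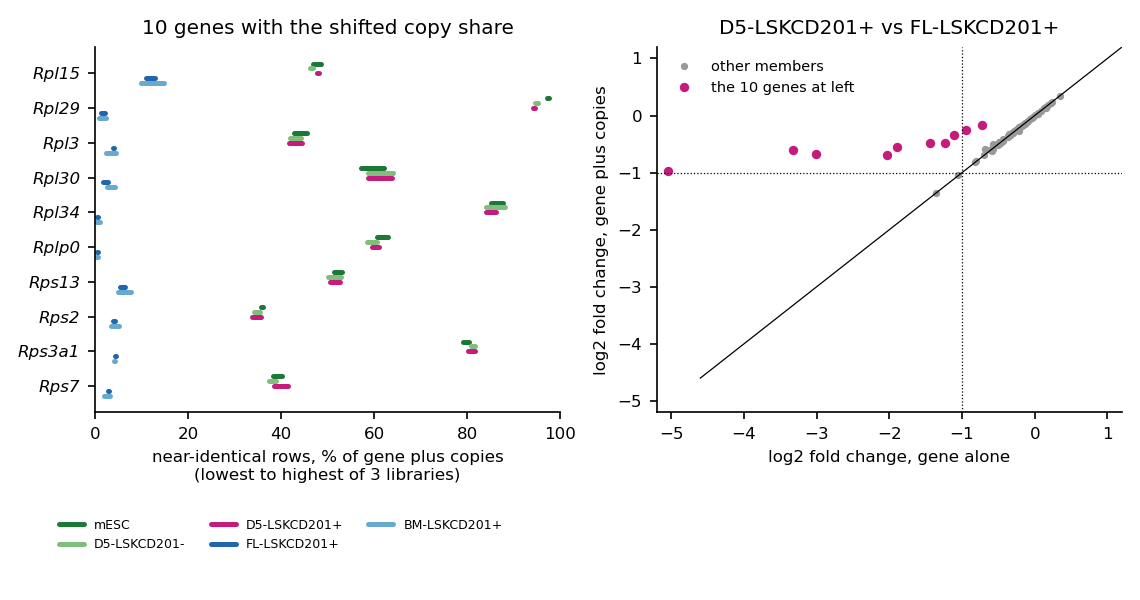
Left, share of the near-identical rows in the summed FPKM of a gene and its copies (x axis, percent, lowest to highest of 3 libraries) for the 10 genes with the shifted share, by group. Right, log2 fold change of D5-LSKCD201+ against FL-LSKCD201+ for each gene alone (x axis) and for the gene plus its copies (y axis), with dotted lines at -1 and the line of equality. Rpl29 moves from -5.05 to -0.97.

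Against BM-LSKCD201+ the family itself was lower in the in vitro cells. Of 85 members tested, 34 were called (40%, against 44.7% of all genes tested), 32 lower and 2 higher, the 2 being Rps3a2 (6.08) and Rps3a3 (2.58). With the adjusted p alone, 68 were lower (80%) and 6 higher, against 49.2% and 34.2% of all genes tested. The median was -0.82, with quartiles of -1.18 and -0.46, beside -0.23 over all genes, and it was -0.62 with libraries scaled to the same sum, where that of all genes was -0.07. On that scale 24 were called, 21 lower and 3 higher, and by quantile normalization 26. Without BM replicate 1, 42 were called and 76 were lower with the adjusted p alone, with a median of -0.94 beside -0.23 over all genes. The shares of all genes without that library are not given here. Of the 34, 9 were parents with the shifted copy share and 2 were copies. With copies summed, 24 of 81 families were called, against 44.7% of all rows tested. All 24 were lower, and the median was -0.75. The hematopoietic, mature myeloid and hepatocyte markers were lower in sum in D5-LSKCD201+ than in any BM library, as given above. The endothelial, stromal, erythroid and pluripotent markers were higher in sum (pluripotent at most 9.72 FPKM in BM). The part of all these markers in the family's difference was not tested.

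Rps27 and Rpl13 differ from BM with little part of copies. Rps27, a zinc-finger protein of the small subunit, was at 299, 240.0 and 296 FPKM in D5-LSKCD201+ and at 842, 1262 and 1319 in BM-LSKCD201+. The groups did not overlap, and the difference was -2.01 for the row (SE 0.18, adjusted p = 2.2e-05, limma) and -2.01 with copies summed. Rpl13, the member with the highest mean over the sorted-cell libraries, was at 2048, 1845 and 1953 FPKM against 4571, 5999 and 6141. Its difference was -1.50 for the row and for the sum. Rpl3, which lies at the peptidyl transferase center, went from -2.25 to -1.49 with its copies, Rps3a1 from -3.77 to -1.44 and Rpl29 from -4.68 to -0.61.

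Not every member was lower than in BM. Rpl5 was at 348, 366 and 379 FPKM in BM-LSKCD201+, a difference of -0.04 (SE 0.05, adjusted p = 0.52, limma), and Rpl23 had one of -0.06. Rps27l was at 139.8, 160.0 and 164 FPKM in BM and higher in D5-LSKCD201+ by 0.87 (SE 0.08, adjusted p = 3.4e-05, limma). Rps4l (0.63), Rpl7l1 (0.35) and the row of Rpl10 (0.24) were also higher past the adjusted p, which the sum of Rpl10 and its copies missed (0.22, adjusted p = 0.065, limma). Of the 12 Diamond-Blackfan anemia genes, 8 were lower (against 49.2% of all genes tested), among them Rps7 (-1.60, and -0.90 with copies summed) and Rps19 (-1.36, and -1.37).

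FL-LSKCD201+ and BM-LSKCD201+ share strain and gate and differ in stage and tissue, but this comparison leans on FL replicate 1. With all libraries, 12 of 86 members were called (14%, against 19.1% of all genes tested), 10 lower in FL and 2 higher, and with the adjusted p alone 11 were lower (12.8%) and 3 higher, against 32.9% and 22.2% of all genes tested. The median was -0.33 beside -0.13 over all genes. Without FL replicate 1, 5 of 87 were called (5.75%, against 20% of all genes then tested), 4 of them the same, and the median was 0.02. With the adjusted p alone 16 were then lower (18.4%) and 14 higher (16.1%), against 37.6% and 26.5% of all genes. With the replicate number as a block, since same-numbered FL and BM libraries deviated together, 15 were called and 27 were lower. The shares of all genes under the block are not given here.

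The called members that remained without FL replicate 1 were Rps27, Rpl13, Rpl39l and Rps4l. Rps27 was at 158, 514 and 499 FPKM in FL-LSKCD201+, below all BM libraries, a difference of -1.70 (SE 0.45, adjusted p = 0.015, limma) that was -1.14 without replicate 1. Rpl13 was at 1353, 2605 and 2536 FPKM in FL, with a difference of -1.41 (SE 0.29, adjusted p = 0.0053, limma) that was -1.10 without it. Rpl39l and Rps4l were higher in FL, by 1.01 and 1.45, and by 1.36 and 1.63 without replicate 1. The call of Rpl39l was lost in 4 of 15 other settings (without FL replicates 2 or 3 and without BM replicates 1 or 3), that of Rps27 without BM replicate 3, and those of Rpl13 and Rps4l in none. Rpl37 (-1.40), Rpl32 (-1.25) and Rps19 (-1.20) were called with all libraries and were at -0.80, -0.73 and -0.77 without replicate 1, past the adjusted p but under the fold threshold. Rps27l came in as the 5th, at 127, 356 and 345 FPKM in FL against 139.8, 160.0 and 164 in BM, with a difference of 1.18 without replicate 1. Leaving out BM replicates 2 or 3 left 7 and 4 members called.

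Genes that serve ribosomes in other ways did not always go with the members. Between D5-LSKCD201+ and D5-LSKCD201-, 41 of 45 ribosome biogenesis genes (nucleolar and RNA polymerase I factors) were lower and 0 higher with the adjusted p alone, with a median of -0.81 that lies below the -0.48 of the members. Tcof1, which supports rRNA transcription, had a difference of -1.56 (SE 0.21, adjusted p = 0.00046, limma) and Polr1b one of -1.42. Of 78 mitochondrial ribosomal protein genes, 49 were lower and 4 higher (median -0.38), beside 39.6% and 28.7% of all genes, with Mrps6 higher by 1.89 (SE 0.05, adjusted p = 1.8e-07, limma). Of 17 translation factors and other mRNAs with a pyrimidine tract, 11 were lower (median -0.41), led by Hnrnpa1 (-0.90). Against mESC the lists went apart in D5-LSKCD201-, where 33 of 45 biogenesis genes were lower and 1 higher while 38 of 88 members were higher and 7 lower, beside 22.4% lower and 32.2% higher of all genes. Eif6, which keeps the 60S subunit from joining early, was the biogenesis gene that was higher, by 0.25, and Utp20 (-1.07) was lowest.

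Against BM the lists parted as well. In D5-LSKCD201+, 37 mitochondrial ribosomal protein genes were higher and 17 lower (median 0.22) and 21 biogenesis genes were higher and 14 lower (median 0.10), against the 68 lower and 6 higher of the 85 members, and beside 34.2% higher and 49.2% lower of all genes. Between FL and BM, 47 of 78 mitochondrial genes were higher and 0 lower (median 0.55) and 28 of 45 biogenesis genes were higher and 2 lower (median 0.47), beside 22.2% higher and 32.9% lower of all genes, with the members at -0.33. Without FL replicate 1 these were 68 and 0 (0.68), 37 and 3 (0.58), and 0.02 for the members, beside 26.5% higher and 37.6% lower of all genes. Mrps22 (1.37) and Bysl (1.49) were highest in FL with all libraries.

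Among 14 known regulators of these genes, the MYC genes differed most between the D5 groups. Mycn was at 214 ± 5.31 FPKM in mESC, 155 ± 20.7 in the CD201- cells and 31.2 ± 1.35 in the CD201+ cells (SD, n = 3), which differed from the others by -2.74 and -2.27. Mycl was at 6.79 ± 0.666 FPKM in mESC, 28.0 ± 7.01 in the CD201- cells and 0.507 ± 0.179 in the CD201+ cells. Between the D5 groups Myc had the opposite order, at 93.6 ± 2.68 FPKM in the CD201+ and 37.9 ± 2.83 in the CD201- cells. The difference was 1.29 (SE 0.07, adjusted p = 3.7e-06, limma). In mESC Myc was at 86.3 ± 1.99 FPKM, from which the CD201+ cells differed by 0.12 and the CD201- cells by -1.17. Larp1 was lower in D5-LSKCD201+ (2.98 ± 0.204 FPKM) than in BM-LSKCD201+ (15.3 ± 0.283), with a difference of -2.03. Whether any of them has a part in the members' levels was not tested.

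The start sites of members that moved together and apart were read for the features the family is known by. RefSeq promoters of GRCm38.p6 (250 bases before to 50 after the start) were found for 63 of the 88 members. A run of at least 7 pyrimidines (C or T) that opens with C lay within 15 bases of the start in 32 of 63 members (50.8%) and in 4421 of 27025 genes of all (16.4%). The letters CCGGAAG, a core of ETS-family and GABPA sites, were found on either strand in 26 of 63 (41.3%) and in 2683 of 27025 (9.93%), and the motifs may overlap. The 30 bases around the start are shown for 2 members lower than in BM, Rps27 (chr3:90213634-90213663, - strand) and Rps18 (chr17:33955651-33955680, - strand), and for 2 parents with their paralogs, Rpl39 (chrX:37085208-37085237, - strand), Rpl39l (chr16:10170213-10170242, + strand), Rpl10 (chrX:74270801-74270830, + strand) and Rpl10l (chr12:66284387-66284416, - strand). Capitals mark the pyrimidine run.
Rps27: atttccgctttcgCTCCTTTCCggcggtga
Rps18: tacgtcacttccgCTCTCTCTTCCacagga
Rpl39: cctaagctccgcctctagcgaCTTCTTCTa
Rpl39l: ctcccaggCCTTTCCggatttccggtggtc
Rpl10: gttgttacagtggaagataggccgcctata
Rpl10l: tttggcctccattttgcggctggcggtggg

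Rps27 and Rps18 carry runs of 9 and 11 bases at the start, and Rpl39 and Rpl39l have runs of 8 and 7 elsewhere in the window, while Rpl10 and Rpl10l have none. Rps27 and Rps18 were chosen for their runs after these were seen. Of other members lower than in BM, Rplp0 and Rpl37 have no run in this window, Rpl13 has one of 7, Rps19 has one of 7 at 1 of its 3 starts, and Rpl34 has runs of 8 and 18 at its 2 starts. Both the paralog with a run and the one without it were high in mESC and D5-LSKCD201- and low in D5-LSKCD201+. A match of letters is a description of the window only.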

How the data were processed

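FPKM per gene and library were deposited by the authors in 2 tables, for 6 coculture and 15 sorted-cell libraries. Per the labels and methods, poly(A) libraries were aligned to GRCm38 with HISAT2 2.0.5 and quantified with StringTie 1.3.3, with Cuffdiff 1.3.0 for the study's own differential test. The submitters' notes also name mm9, with a role not given in the sources used here. Counts were not used here and depth is unknown, so precision rests on 3 replicates. Here, log2(FPKM + 1) was tested within each table with limma 3.58.1 (trend, two-sided) in R 4.3.3 over genes whose mean reached 0.5 FPKM, adjusted by Benjamini-Hochberg in each of 7 comparisons. The code was tested on simulated data. Same-numbered libraries were taken as paired where all 3 pairs' deviations correlated above 0.1, a check on the data since no label pairs them, which held for FL and BM alone (0.242, 0.202 and 0.159). Figures were made in matplotlib 3.10.9 under Python 3.11.15.

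The members and gene lists were chosen with earlier results of these data known. Named were members past both thresholds (beyond 10, the 5 largest changes in each direction), those of the P stalk, paralog and 5S lists, the 3 highest by mean FPKM, and for other lists the 2 largest changes in each direction. Rpl38, Rps29, Rpl26, Rps18, Rpl7l1 in FL, Rps7, parents such as Rps4x, and members named within a comparison without a call were chosen after their values were seen. The alternatives were other pseudocounts, filters, scalings and designs, and each library left out. Some results of the rule are not reported here.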

Additional observations from a re-analysis of the deposited data

Results flagged for a closer look

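Against mESC, the D5-LSKCD201+ and D5-LSKCD201- cells changed differently in 72 members, by the direct limma test between the D5 groups with the adjusted p alone, and these are the 72 members lower in D5-LSKCD201+ given above. The summed shares of the D5 groups lay apart, at 6.81 to 7.44% of all FPKM in D5-LSKCD201+ and 8.65 to 9.26% in D5-LSKCD201-. The mESC libraries had 8.61, 8.65 and 8.13%, so the highest of them was level with the lowest D5-LSKCD201- library at this precision.

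Rows outside the set carried sequence of its members. Near-identical rows, without the 4 that are members themselves, took a mean of 0.781% of all FPKM in D5-LSKCD201+, 0.867% in mESC and 0.894% in D5-LSKCD201-, but 0.236% in FL-LSKCD201+ and 0.348% in BM-LSKCD201+. With those 4, the near-identical rows took 10.4 to 11.5% of the summed FPKM of the families (parents and near-identical rows) in the 9 in vitro libraries and 1.95 to 3.15% in the 6 others. The cause was not tested.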

How the results depend on the processing

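Of the values compared across settings, 292 stayed within their margin and 37 moved. Within its margin, the FL against BM median turned from -0.33 to 0.02 without FL replicate 1, and 48 of 87 members were then positive against 16 of 86. By quantile normalization and without D5-LSKCD201- replicate 3, the call of Rpl29 in D5-LSKCD201- against mESC was lost and Rpl3l, lower, was called. Leaving out 1 library gave 0 to 1 members called in 3D+OP9 against 3D+0.1% gelatin, 0 to 1 called and 24 to 46 higher in D5-LSKCD201- against mESC (24 without mESC replicate 3), 14 to 81 lower in D5-LSKCD201+ against FL (81 without FL replicate 1), and 4 to 13 called and 4 to 17 lower in FL against BM (4 and 4 without BM replicate 3, 7 and 5 without BM replicate 2, 17 lower without FL replicate 2). One fit over all 5 groups gave 30 lower (D5-LSKCD201+ against D5-LSKCD201-), 20 lower (against mESC), 5 higher (D5-LSKCD201- against mESC), 33 lower (D5-LSKCD201+ against FL) and 26 lower (FL against BM). The shares of all genes in that fit are not given here. In D5-LSKCD201- against mESC, 2 were called with a pseudocount of 0.1, on the TPM scale or scaled over the other genes. The median was -0.32 in D5-LSKCD201+ against D5-LSKCD201- by quantile normalization, and -0.62 against BM by that or the TPM scale. In FL against BM, no filter gave 7 called and 5 lower, and both rescalings gave 20 lower. Summing near-identical rows, added after seeing the data, gave 0 called in D5-LSKCD201- against mESC, and 2 called and 12 lower in D5-LSKCD201+ against FL (8 called without FL replicate 1). It raised the mean share to 9.33% in mESC and to 9.97% and 7.94% in the CD201- and CD201+ cells, and adding pseudogene rows gave 8.82% in mESC and 9.44% in D5-LSKCD201-. The cause of these moves was not tested.

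Replicate numbers paired FL with BM alone. The replicate block raised the members lower in FL to 27 and the called to 15, and changed the number called in no other comparison. Depth is unknown, levels near 0 FPKM have no stated floor, and rows with near-identical copies are uncertain.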

Other observations

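Rps6 was among the lowest members in one table only, at 29.2 FPKM on average over the 6 coculture libraries (rank 80 of 84) and at 1630 FPKM in the sorted-cell table. Rpl34 (34.7) and Rpl29 (98.5) were also low in the coculture table, as they were in mESC and both D5 groups of the sorted-cell table, whereas Rps3a1 was at 1870. The tables were normalized separately and list different near-identical rows, and the cause was not tested.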
